A study of Mus musculus with 6 samples.

Results

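Transcripts that mark lung cells other than group 2 innate lymphoid cells (ILC2s) were examined in RNA sequencing of ILC2s sorted from mouse lung. The set was 42 marker genes, matched by symbol among the 39527 genes of the authors' deposited table, and all 42 were found. They were chosen as a check of sort purity and comprise 13 macrophage and monocyte genes, 6 neutrophil genes, 7 genes of eosinophils, basophils and mast cells, 10 epithelial genes and 6 erythroid genes. The study compared 3 samples from R5/+LKB1f/f mice (KO) with 3 from R5/+ mice (WT), every sample a pool of 3 to 4 animals given IL-33 for 4 days. Both groups carry 1 copy of R5, which the labels do not spell out, and only KO carries the floxed LKB1 alleles. The labels do not name the Cre, describe the floxed exons or give the age of the mice. LKB1 is a serine/threonine kinase encoded by Stk11.

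ILC2s are tissue-resident lymphocytes without rearranged antigen receptors that answer IL-33 with type 2 cytokines and growth factors. Lung tissue around them holds alveolar and interstitial macrophages, granulocytes drawn in by type 2 inflammation, surfactant-producing alveolar type 2 cells, secretory club cells of the airways, and red cells in its vessels. Surfactant, secretoglobin and globin messages are extremely abundant in their own cells, so that few such cells, or RNA released by them, can be detected in a sorted population. In pooled RNA, fewer cells of a type and less RNA per cell cannot be told apart. Whether each transcript came from other cells or from the ILC2s themselves was not tested.

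The values come from the comparison of genotypes that the authors deposited, with 1 mean normalized count, 1 log2 fold change and 1 standard error (SE, given after ±) per gene, and values of single samples were not used here. No source used here states which genotype is the numerator. Signs are therefore those of the deposited comparison, and no gene is assigned to KO or WT. Stk11, the floxed gene, had -1.34 ± 0.30 in the authors' deposited table, and a negative sign below is the sign it carries. Markers of the labelled cell type were abundant, the 22 ILC2 genes making up 1.73% of the summed mean normalized counts in the authors' deposited table. Of these 22, 6 were called positive and 4 negative, where called means an adjusted p below 0.05 in that comparison.

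Several members belong to near-identical pairs, and their sequences are shown because reads may be shared within a pair. Lyz1 (mm10 chr10:117287797-117292868) and Lyz2 (chr10:117277331-117282321), neighbours on chromosome 10, encode the P and M lysozymes. Their coding sequences, both 444 bases, differed at 22 positions with a longest identical stretch of 118 bases. Positions 7 to 156 of both coding sequences, counted from the A of the start codon, held 15 of these differences, which stand in capitals in the GENCODE M21 sequences that follow.
Lyz1: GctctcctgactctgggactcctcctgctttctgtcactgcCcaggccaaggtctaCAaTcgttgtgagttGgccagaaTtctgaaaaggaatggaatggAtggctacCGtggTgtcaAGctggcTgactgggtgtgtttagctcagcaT
Lyz2: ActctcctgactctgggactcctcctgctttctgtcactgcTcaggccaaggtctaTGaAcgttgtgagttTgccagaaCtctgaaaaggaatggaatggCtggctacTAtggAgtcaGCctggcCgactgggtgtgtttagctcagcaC

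The globin pairs were closer still. The coding sequences of the alpha globin genes Hba-a1 and Hba-a2, both 426 bases, differed at 1 base and shared an identical stretch of 380 bases. Those of the beta globin genes Hbb-bs and Hbb-bt, both 441 bases, also differed at 1 base and shared a stretch of 416 bases. The sources used here do not say how the authors' counting divided such reads, and the split between partners is uncertain. Positions 232 to 381 of the alpha globin coding sequences hold the single difference, in capitals.
Hba-a1: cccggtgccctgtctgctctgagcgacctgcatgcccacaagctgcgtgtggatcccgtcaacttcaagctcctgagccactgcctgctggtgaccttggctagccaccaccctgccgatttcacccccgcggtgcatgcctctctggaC
Hba-a2: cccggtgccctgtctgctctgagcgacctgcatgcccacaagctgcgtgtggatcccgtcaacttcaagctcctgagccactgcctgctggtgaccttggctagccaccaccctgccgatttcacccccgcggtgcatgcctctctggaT

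Levels of the 42 markers were uneven. Together they held 0.213% of the summed mean normalized counts in the authors' deposited table, of which 7 genes made up 83.7%. These 7 were Hba-a1, Sftpc, Lyz2, Hbb-bs, Scgb1a1, Sftpa1 and Cpa3. Per kb of exon, which allows genes to be compared, the members had a median of 62.6 normalized counts, against 2477 for the ILC2 markers and 67.4 for all tested genes. Lower than every ILC2 marker were 25 of the 42 members on this scale, and 5 lay above the ILC2 median.

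**Figure D1:**
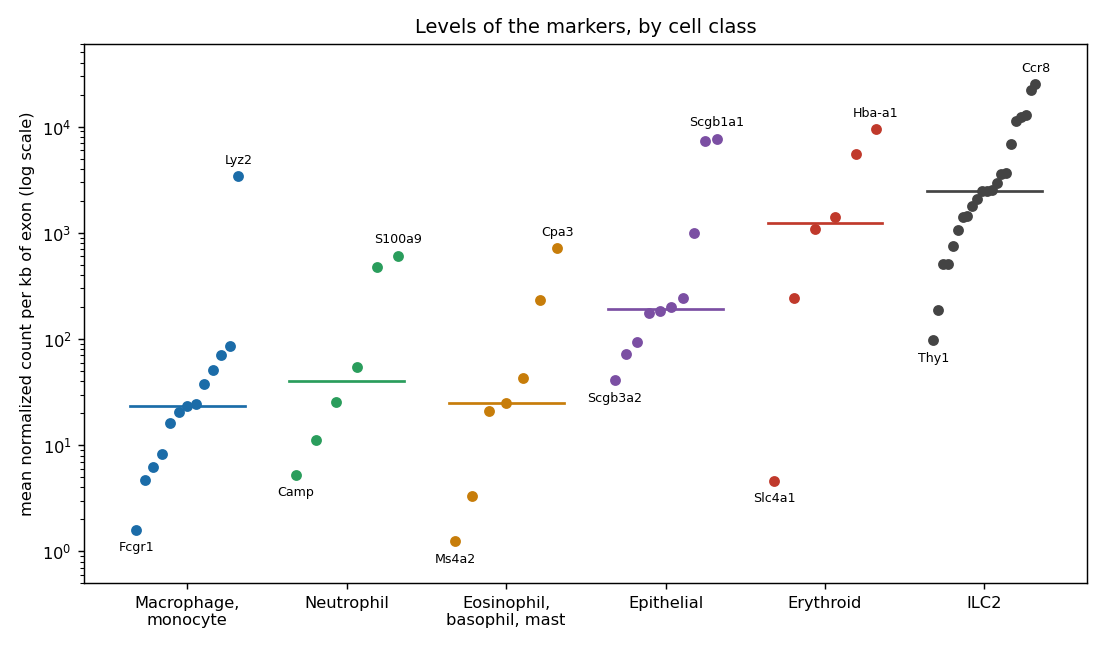
Mean normalized count per kb of exon (log scale) for each member, by cell class, beside 22 ILC2 markers. Each point is 1 gene from the authors' deposited table, horizontal lines are class medians, and the lowest and highest gene of each class is named. Hba-a1, Scgb1a1, Sftpc, Hbb-bs and Lyz2 lie above the median of the ILC2 markers, while most myeloid genes lie below all of them.

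Classes differed in how evenly their genes were represented. Erythroid genes had a median of 1241 and epithelial genes of 192 normalized counts per kb, as computed from the authors' deposited table. Neutrophil genes followed with 40.3, then the eosinophil, basophil and mast cell genes with 24.9 and the macrophage and monocyte genes with 23.5 on the same scale. Within the macrophage class Lyz2 stood apart at 3396 per kb, since the other 12 genes lay between 1.60 for Fcgr1 and 86.3 for Ear2 in the authors' deposited table. No member was at 0.

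The fold changes of these markers were large and mostly negative, with few past the threshold. A p was given for 34 members and an adjusted p for 30, those that passed the filter on low values at a mean of 10.46 normalized counts in the authors' deposited table. Called were 3 of these 30, all negative, against 24.5% of all 14961 tested genes called in either direction and 13.5% called negative. The share of the members, 10%, was thus below the background for calls in either direction. The median log2 fold change over the 34 members with a p was -1.09, against -0.00557 over all tested genes in the authors' deposited table. Signs were negative for 26 and positive for 4 of the 30 members with an adjusted p, where 50.4% of all tested genes were negative. An absolute fold change of at least 1 on the log2 scale was found in 19 of the 30, of which 3 were called, while 13.5% of all tested genes reached that size and 56.4% of those were called.

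Other thresholds gave between 2 and 5 calls among the members, all negative. At an adjusted p below 0.01, 2 of 30 members were called, C1qa and Ccr3, against 15.8% of tested genes. At an adjusted p below 0.1 Lyz1 was added, giving 4 of 30 against 30.2% of tested genes. Adjustment over every gene with a p left 2 of 34 members, against 7.23% of genes. Adjustment over genes with a mean of at least 100 normalized counts gave 2 of 13 members, against 35.5%. With no adjustment, 5 members had a p below 0.05. These were 5 of the 30 with an adjusted p, against 34.6% of such genes, and 5 of the 34 with a p, against 14.6%.

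**Figure D2:**
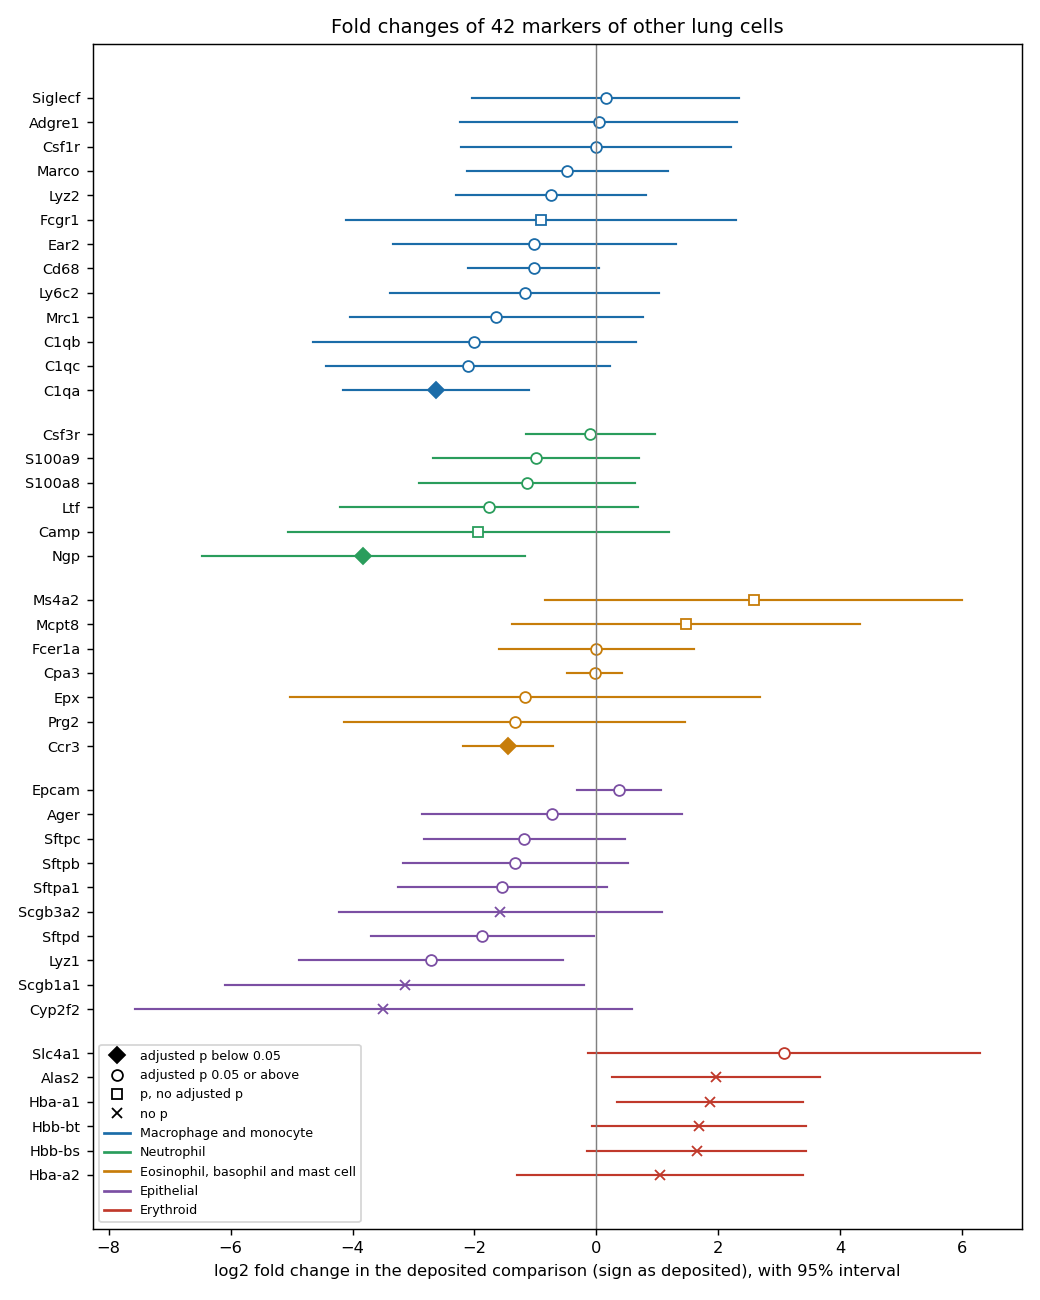
Log2 fold change of each of the 42 members, sign as deposited, with its 95% interval (horizontal line), ordered within each cell class. Filled diamonds are the 3 called genes, C1qa, Ngp and Ccr3. Circles have an adjusted p of 0.05 or above, squares a p without an adjusted p, and crosses no p. All 6 erythroid genes lie above 0, and 9 of 10 epithelial genes below.

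Errors of these genes were large for their level, as they were in several other lists of non-ILC2 markers. The median SE was 1.11 over the 42 members and 0.233 over all tested genes in the authors' deposited table. Set against the running median SE of 301 tested genes of like mean, the SE of a member was 3.22 times as large at the median, with a range of 1.13 to 10.6. An SE at least 2 times this running median was found in 29 of the 42 members, and in 21 of the 30 with an adjusted p (70.0%), against 471 of 14961 tested genes (3.15%). The share was alike in the endothelial (70.0%), B and plasma cell (70.0%) and fibroblast and smooth muscle (66.7%) lists, so it was not particular to the members, and 9.09% in the ILC2 list. In the plot of error against level, genes with an SE at least 2 times the running median form a separate band above the main one.

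**Figure D3:**
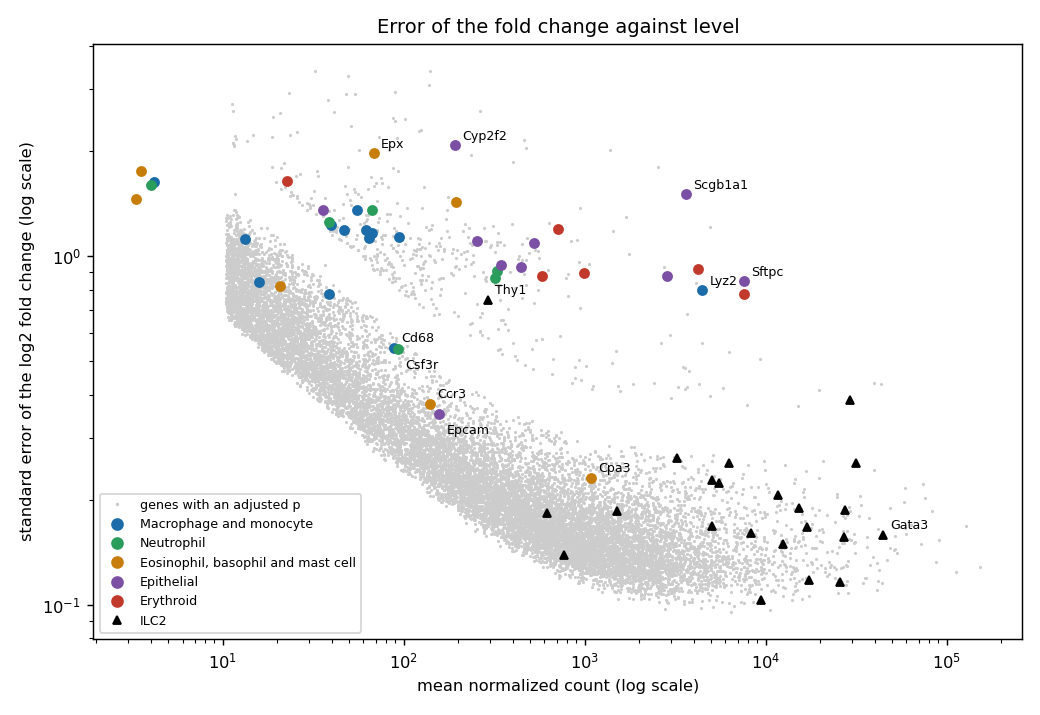
SE of the log2 fold change against mean normalized count, both on log scales, for all genes with an adjusted p (grey), the 42 members (coloured by class) and 22 ILC2 markers (black triangles). Most members lie in the upper band, among them Lyz2, Sftpc and Scgb1a1, while Cpa3, Epcam, Ccr3, Csf3r and Cd68 lie in the main band.

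The errors limited what could be called. The largest p called was 0.0122, a score of 2.51 in the authors' deposited table, so that the smallest change that could pass was 2.51 times the SE. It had a median of 2.54 on the log2 scale over the 30 members and 0.585 over all tested genes. A difference of 1 could have passed for 3 of the 30 members (Cpa3, Epcam and Ccr3), against 69.0% of all tested genes. For the others a 2-fold difference was not detectable with these errors.

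Among the 9 members with an adjusted p and an SE below 2 times the running median, 2 were called and the median log2 fold change was -0.10 in the authors' deposited table. Among the 21 with larger errors, 1 was called, 19 were negative and the median was -1.18. Over all tested genes with such large errors, 80.5% were negative, the median was -0.82 and 15.5% were called. A preponderance of negative signs was thus shared by the members with large errors and by tested genes with large errors at large.

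A p was missing for 8 members, 19.0% of the set, against 83 of 39527 genes (0.21%) in the whole table. They were the erythroid genes Hba-a1, Hba-a2, Hbb-bs, Hbb-bt and Alas2 and the club cell genes Scgb1a1, Scgb3a2 and Cyp2f2. Of 9721 genes with a mean of at least 100 normalized counts, 7 had no p, and all 7 were members. Immunoglobulin segments made up 34 of the 83. Why these genes carry no p is not stated in the sources used here, and whether 1 library sets their values was not tested.

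Erythroid genes were the class with a uniformly positive sign, opposite to that of Stk11. Of the 6, 5 had no p and could not be called, and the authors' comparison did not call Slc4a1, the one that had. Hba-a1 had a mean of 7641 normalized counts and a log2 fold change of 1.87 ± 0.78 in the authors' deposited table. Its partner Hba-a2 had 717 normalized counts and 1.04 ± 1.2 in the authors' deposited table. The beta globins Hbb-bs (4234 normalized counts, 1.64 ± 0.92) and Hbb-bt (989 normalized counts, 1.69 ± 0.89) were nearly equal in fold change in the authors' deposited table. Alpha and beta globin, the chains of adult hemoglobin, thus had the same sign, and all 4 intervals overlap.

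Beyond the globins, Alas2, the erythroid form of the first enzyme of heme synthesis, had 1.96 ± 0.87 at 580.5 normalized counts in the authors' deposited table. Exons of Alas2 overlap those of Apex2 on the opposite strand over 12.9% of their length, and Apex2 had a mean of 274 normalized counts. Slc4a1, the band 3 anion exchanger of the red cell membrane, was the one erythroid member with an adjusted p. Its log2 fold change was 3.08 ± 1.64 (adjusted p = 0.167) at 22.7 normalized counts in the authors' deposited table. Intervals of 95% excluded 0 for Hba-a1 (0.34 to 3.39) and Alas2 (0.25 to 3.67) but not for the other 4 in the authors' deposited table. Hba-a1 and Alas2 have no p, so their intervals do not stand in for a test. All 6 erythroid members share the same libraries, so that their common sign is not 6 independent observations.

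For the erythroid genes, the 250 bases before the RefSeq starts (GRCm38.p6) were read. Whether these sequences bear on the shared sign was not tested. Such a sequence was found for 33 of the 42 members and for 5 of the 6 erythroid genes, all but Slc4a1. The GATA motif, searched as AGATAA or AGATAG, with A or T as its first base, on both strands, was present in 4 of the 5, against 26.5% of 32851 promoters. The CACCC motif, also on both strands and free to overlap the GATA motif, was present in all 5, against 52.0% of promoters. Among the other classes the GATA motif was found in 4 of 6 eosinophil, basophil and mast cell promoters, 3 of 6 neutrophil, 2 of 6 epithelial and 1 of 11 macrophage and monocyte promoters. The CACCC motif was found in 3 of 6, 4 of 6, 4 of 6 and 7 of 11 of these, in the same order. The motifs were chosen as known erythroid motifs with the fold changes already seen, and the upstream sequences of Hba-a1 and Hba-a2 matched at all 247 bases of their common part, so that the count holds 1 sequence in duplicate. GATA1 and KLF1, the erythroid factors that bind such motifs, were not measured at these sites. In the following 4 promoters, given on the strand of the gene, capitals mark the GATA motif on either strand, which Hbb-bt lacked.
Hba-a1, chr11:32283422-32283671, plus strand: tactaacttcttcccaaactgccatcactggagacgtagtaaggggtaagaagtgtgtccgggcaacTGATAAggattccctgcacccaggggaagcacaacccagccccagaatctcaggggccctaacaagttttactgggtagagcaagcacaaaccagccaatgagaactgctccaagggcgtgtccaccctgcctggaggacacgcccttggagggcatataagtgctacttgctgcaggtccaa
Hbb-bs, chr7:103827929-103828178, minus strand: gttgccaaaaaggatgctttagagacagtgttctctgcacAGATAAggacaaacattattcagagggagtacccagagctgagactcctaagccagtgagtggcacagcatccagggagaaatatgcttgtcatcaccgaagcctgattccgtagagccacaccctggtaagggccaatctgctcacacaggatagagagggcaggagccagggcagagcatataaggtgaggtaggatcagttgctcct
Hbb-bt, chr7:103813924-103814173, minus strand: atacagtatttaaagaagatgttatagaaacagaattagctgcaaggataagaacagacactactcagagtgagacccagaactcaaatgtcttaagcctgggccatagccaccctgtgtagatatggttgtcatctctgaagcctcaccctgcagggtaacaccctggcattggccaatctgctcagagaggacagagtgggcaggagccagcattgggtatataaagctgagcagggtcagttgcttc
Alas2, chrX:150547167-150547416, plus strand: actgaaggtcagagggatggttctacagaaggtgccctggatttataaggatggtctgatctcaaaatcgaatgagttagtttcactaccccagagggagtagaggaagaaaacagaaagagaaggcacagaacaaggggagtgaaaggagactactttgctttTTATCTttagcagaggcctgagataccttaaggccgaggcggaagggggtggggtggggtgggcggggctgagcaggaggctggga

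Further erythroid genes did not share this uniform sign. Of 12 found, 8 lay above 0 and 4 below, and of the 8 with an adjusted p 1 was called positive and 2 negative. Car1, a carbonic anhydrase of red cells, had the sign opposite to the globins, with -4.44 ± 1.25 (adjusted p = 0.00319) at 12.4 normalized counts in the authors' deposited table. Car2, a related carbonic anhydrase found in many cells, had 0.79 ± 0.24 (adjusted p = 0.00729) in the authors' deposited table. The most significant of the list was the transferrin receptor Tfrc, which dividing cells of many kinds use for iron uptake, at -0.70 ± 0.17 in the authors' deposited table. Fech, the last enzyme of heme synthesis and the most abundant of the list, had 0.27 ± 0.14 (adjusted p = 0.134) in the authors' deposited table.

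Epithelial genes were negative in 9 of 10 members, and 0 of the 7 with an adjusted p were called. In the authors' comparison 2 of them, Lyz1 and Sftpd, had an unadjusted p below 0.05. The 4 surfactant genes lay close together. Sftpc, the lung-specific surfactant protein C of alveolar type 2 cells, had 7594 normalized counts and -1.18 ± 0.84 (adjusted p = 0.331) in the authors' deposited table. Sftpa1, a collectin of surfactant, had 2866 normalized counts and -1.54 ± 0.87 (adjusted p = 0.199) in the authors' deposited table. Their levels per kb were 7344 and 1002 normalized counts, so that both were among the most abundant members.

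Sftpb, the surfactant protein needed to spread the lipid film, had -1.33 ± 0.94 (adjusted p = 0.325) in the authors' deposited table. Sftpd, the other surfactant collectin, had -1.87 ± 0.93 (adjusted p = 0.132) in the authors' deposited table. The 4 values spanned 0.69 on the log2 scale, less than any of their SEs. Lyz1 had the most negative value of the class among genes with an adjusted p, -2.71 ± 1.10 at 253 normalized counts in the authors' deposited table. Its adjusted p was 0.0554, just above the threshold. It was 0.0415 when p was adjusted over genes with a mean of at least 100 normalized counts.

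The club cell genes had no p and large errors for their level. Scgb1a1, the secretoglobin that defines club cells, had 3644 normalized counts and -3.15 ± 1.5 in the authors' deposited table. Its 95% interval, -6.09 to -0.20, excluded 0, likewise without a p. Cyp2f2, a cytochrome P450 of club cells, had 191 normalized counts and -3.49 ± 2.08 in the authors' deposited table, the most negative fold change among the epithelial members. Scgb3a2, a second airway secretoglobin, had 36 normalized counts and -1.57 ± 1.35 in the authors' deposited table. The SE of Scgb1a1 was 10.6 times and that of Cyp2f2 8.51 times the running median of genes of like mean, the highest ratios among the 42.

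Ager, a receptor abundant on alveolar type 1 cells, had -0.73 ± 1.09 (adjusted p = 0.685) at 522 normalized counts in the authors' deposited table. Epcam, an adhesion protein of epithelia, was the exception of the class, with a positive value and a small error, 0.38 ± 0.35 (adjusted p = 0.478) in the authors' deposited table. Its SE was 1.31 times the running median, against 4.59 times or more for the other epithelial members with an adjusted p. Its interval, -0.31 to 1.07, does not include the fold change of any of the 4 surfactant genes in the authors' deposited table. It overlaps the wide intervals of all 4, and a difference between Epcam and these genes was not tested.

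Of 22 further epithelial markers, 18 had an adjusted p, and of these 15 were negative and 3 positive. Called was 1, Tppp3, a tubulin-binding protein of ciliated and other cells, at -2.05 ± 0.32 in the authors' deposited table. The alveolar type 2 phosphate transporter Slc34a2, with the highest mean of the list, had -1.22 ± 0.91 (adjusted p = 0.356) in the authors' deposited table, close to Sftpc. Lamp3 (-0.80 ± 1.05) and Cxcl15 (-1.12 ± 0.98) also had wide errors. Napsa (-0.18 ± 0.29), Abca3 (0.07 ± 0.27) and Etv5 (-0.28 ± 0.31) had smaller errors and smaller fold changes, and their intervals do not include the value of Sftpc. SEs of at least 2 times the running median were found in 7 of the 18, all negative. Foxj1, the defining factor of ciliated cells, had 2.55 normalized counts and no adjusted p in the authors' deposited table. Bpifa1, also without an adjusted p, had a positive value, 3.60 ± 1.33 at 8.37 normalized counts. Scgb3a1 had 0.86 ± 0.96 and Muc5b -0.60 ± 0.82 in the same list.

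Genes of macrophages and monocytes were negative in 11 of 13 members, with 1 of 12 called. The 3 chains of complement C1q, which tissue macrophages make together and assemble into 1 protein, had the most negative values. C1qa had -2.63 ± 0.78 (adjusted p = 0.00526) in the authors' deposited table. C1qb had -2.0 ± 1.35 (adjusted p = 0.298) and C1qc -2.11 ± 1.19 (adjusted p = 0.195) in the authors' deposited table. Mean levels were alike, at 38.8, 55.5 and 46.8 normalized counts in the same order. The 3 fold changes lay within 1 SE of each other, and C1qa differed from its partners mainly in its SE, 1.59 times the running median against 3.34 times for C1qb and 2.63 times for C1qc.

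Lyz2, the lysozyme of macrophages and neutrophils that alveolar type 2 cells also make, was the most abundant myeloid gene, with 4469 normalized counts. It had -0.75 ± 0.80 (adjusted p = 0.546) in the authors' deposited table. Cd68, a lysosomal protein of phagocytes, had -1.03 ± 0.55 (adjusted p = 0.164) at 88.5 normalized counts in the authors' deposited table. Mrc1, the mannose receptor CD206, had -1.64 ± 1.22 (adjusted p = 0.354) at 39.9 normalized counts in the authors' deposited table. The lineage receptors were near 0 with wide errors. Csf1r, the receptor for macrophage colony-stimulating factor, had -0.0093 ± 1.13 (adjusted p = 0.997) and Adgre1, which encodes F4/80, 0.035 ± 1.16 (adjusted p = 0.988) in the authors' deposited table. Exons of Csf1r overlap those of Hmgxb3 on the opposite strand over 15.1% of their length, and Hmgxb3 had a mean of 682 normalized counts.

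Among the members shared with or typical of alveolar macrophages, Marco and Siglecf were scarce. Marco, a scavenger receptor, had 15.8 normalized counts and -0.48 ± 0.84 (adjusted p = 0.734) in the authors' deposited table. Siglecf, a sialic acid receptor shared by alveolar macrophages and eosinophils, had 13.3 normalized counts and 0.15 ± 1.12 (adjusted p = 0.944) in the authors' deposited table. Ear2, a ribonuclease of the eosinophil-associated family that macrophages also make, had 62.1 normalized counts and -1.02 ± 1.19 (adjusted p = 0.588) in the authors' deposited table. Genes of the Ear family are close paralogs, and their counts can be shared. Ly6c2, a surface protein of inflammatory monocytes, had -1.18 ± 1.12 (adjusted p = 0.492) and the IgG receptor Fcgr1 -0.92 ± 1.63 without an adjusted p, at 4.15 normalized counts, in the authors' deposited table.

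Further macrophage markers gave a mixed picture. Of 12 alveolar macrophage genes with an adjusted p, 10 were negative in sign, and 1 was called in each direction. The called genes were Fabp5, a fatty acid binding protein (-1.65 ± 0.19), and the cholesterol exporter Abcg1 (0.43 ± 0.15) in the authors' deposited table. Pparg, the gene with the highest mean in the list and a nuclear receptor that ILC2s also use, had -0.10 ± 0.20 (adjusted p = 0.779) in the authors' deposited table. Of 18 interstitial macrophage and monocyte genes with an adjusted p, 12 were negative in sign and 1 was called, Plac8 at -0.65 ± 0.16 in the authors' deposited table. Ccr2, the most abundant of that list, had 0.12 ± 0.26 (adjusted p = 0.786) at 9763 normalized counts in the authors' deposited table. Chil3, a chitinase-like protein secreted by alveolar macrophages, was also abundant, at 1753.5 normalized counts, with -1.77 ± 1.01 (adjusted p = 0.201) in the authors' deposited table. Its SE was 7.07 times the running median, as in the wide band of the members. The called genes had SEs between 1.0 and 1.24 times the running median, unlike most of the 42.

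Neutrophil genes were negative in all 6 members, and 1 of 5 was called. Ngp, a granule protein of immature neutrophils, had the most negative fold change of the whole set, -3.82 ± 1.35 (adjusted p = 0.0236) at 66.9 normalized counts in the authors' deposited table. Its interval ran from -6.47 to -1.18. Adjusted over every gene with a p, its adjusted p was 0.0612 and the call was lost. The granule genes Ltf (lactoferrin, -1.76 ± 1.25, adjusted p = 0.326) and Camp (cathelicidin, -1.94 ± 1.60, no adjusted p) shared its sign in the authors' deposited table.

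S100a8 and S100a9, which encode the partners of calprotectin, had nearly the same values. S100a8 had 329 normalized counts and -1.14 ± 0.90 (adjusted p = 0.390) in the authors' deposited table. S100a9 had 319 normalized counts and -0.99 ± 0.86 (adjusted p = 0.442) in the authors' deposited table. Csf3r, the G-CSF receptor of mature neutrophils, had -0.10 ± 0.54 (adjusted p = 0.921) at 92.9 normalized counts in the authors' deposited table. Its interval, -1.16 to 0.96, overlaps those of all other neutrophil members except Ngp, and the differences between these genes were not tested.

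Of 8 further neutrophil genes with an adjusted p, 7 were negative in sign and 1 was called. That gene was Il1r2, the decoy receptor for interleukin 1, at -1.35 ± 0.17 and 4808 normalized counts in the authors' deposited table. The other genes of this list were far lower than Il1r2. The highest of them were Retnlg (197 normalized counts), Lcn2 (161) and Mmp9 (146), while Ly6g had 4.20 and Cxcr2 21 in the authors' deposited table. Il1r2 is also made by other cells, and at 2520.1 normalized counts per kb it lay above the ILC2 median of 2477.

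Granulocyte genes of type 2 inflammation differed among themselves. Ccr3, the eotaxin receptor of eosinophils, was called at -1.45 ± 0.38 (adjusted p = 0.00118) and 139 normalized counts in the authors' deposited table. The granule genes of eosinophils had similar fold changes with far larger errors, -1.34 ± 1.43 for Prg2 (major basic protein) and -1.17 ± 1.97 for Epx (eosinophil peroxidase) in the authors' deposited table. Their adjusted p values were 0.547 and 0.724, and their SEs were 5.89 and 5.31 times the running median, against 1.35 times for Ccr3. The fold change of Ccr3 was slightly larger in size than those of both granule genes, and its SE was far smaller.

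Among the members, mast cell and basophil genes were near 0 or too low for an adjusted p. Cpa3, a carboxypeptidase of mast cells and basophils, had 1088 normalized counts and -0.03 ± 0.23 (adjusted p = 0.947) in the authors' deposited table. Its interval, -0.48 to 0.42, was the narrowest of the 42. Fcer1a, the alpha chain of the high-affinity IgE receptor, had 20.9 normalized counts and -0.0007 ± 0.82 (adjusted p = 0.999) in the authors' deposited table. Ms4a2, its beta chain, and the basophil protease Mcpt8 had 3.52 and 3.31 normalized counts and no adjusted p in the authors' deposited table. Their positive values, 2.58 ± 1.75 and 1.47 ± 1.46, have intervals that include 0. Cpa3 was far more abundant per kb than either, at 717 normalized counts per kb against 1.25 for Ms4a2 and 3.31 for Mcpt8 in the authors' deposited table.

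Of 7 further granulocyte and mast cell genes with an adjusted p, 2 were called positive and 1 negative. Hdc, the enzyme that makes histamine, was the most abundant and most significant, at 1.81 ± 0.22 and 3590.2 normalized counts in the authors' deposited table. Cd200r3, a receptor of basophils and mast cells, had 2.91 ± 0.54 at 93.0 normalized counts in the authors' deposited table. Ear6, an eosinophil-associated ribonuclease, had -2.33 ± 0.88 (adjusted p = 0.0365) in the authors' deposited table. The protease genes of connective tissue and mucosal mast cells, Cma1, Mcpt4, Mcpt1 and Tpsb2, had at most 2.94 normalized counts in the authors' deposited table. Tpsab1, a further tryptase gene, had 3.35 normalized counts in the authors' deposited table. These 5 genes lay below the lowest mean of a gene with an adjusted p, 10.46 normalized counts.

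**Figure D4:**
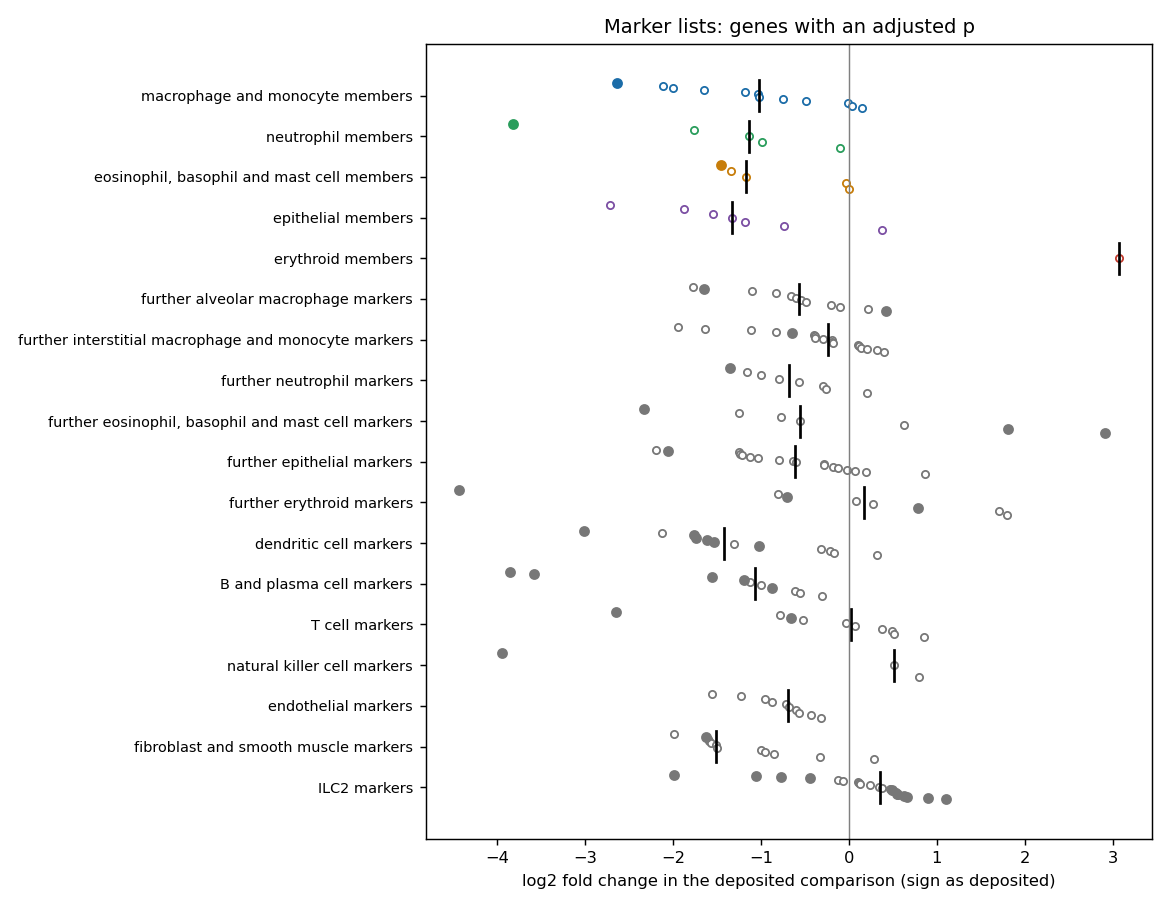
Log2 fold changes, sign as deposited, of genes with an adjusted p in the 5 classes of members (coloured), in 12 further marker lists and in the ILC2 markers (all grey). Filled points are called at an adjusted p below 0.05, open points are not, and black bars are medians. The medians of the myeloid and epithelial classes lie near -1, and that of the ILC2 markers at 0.36.

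Across the further lists of the same 5 cell types, 71 of 99 genes had an adjusted p. Of these, 51 were negative in sign, 7 were called negative and 4 positive, or 15.5% in all, below the background of 24.5%. The median log2 fold change was -0.40 in the authors' deposited table. SEs of at least 2 times the running median were found in 24 of the 71 (33.8%), and 0 of these 24 were called in the authors' comparison, with 1 (Krt8, a keratin) at an unadjusted p below 0.05.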

How the data were processed

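RNA was sequenced from lung ILC2s of 3 KO and 3 WT pools given IL-33 for 4 days. By the labels' protocols, RNA at 7 to 14 ng per ul was amplified with a SMART-Seq HT kit and made into libraries with a TruePrep V2 kit, neither of which marks strand. The submitters' processing notes name HISAT2, Cufflinks and mm10. The authors deposited, per the file headers, a mean normalized count per gene (a signal, without a stated scale), a fold change on the log2 scale and the error of it, a score, and p-values before and after adjustment. The deposited score equals the log2 fold change over its standard error within 2.4e-07, the deposited p-value is the 2-sided normal p of that score within 5e-08, and the adjusted p is the authors' Benjamini-Hochberg value within 7.6e-07. Amplified reads without molecular identifiers are not independent molecules.

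The 12 per-sample columns carry 6 names that match no label and were not used, so depth per sample is unknown here and the authors' comparison took the place of a new fit. Whether the pools are separate biological replicates rests on the labels. Each p-value weighs a fold change against its SE, and pools do not show the spread between single mice. Computed here, with scipy 1.17.1, statsmodels 0.14.6 and pandas 2.3.3 under Python 3.11.15, were 95% intervals (normal), levels per kb of exon (GENCODE M21, matching 99.27% of identifiers), running medians of the SE, and counts. Code was checked on simulated data. The members and lists were chosen with earlier results of these data known. Every member with an adjusted p is named with its values, and of each further list the most abundant and the most significant gene, with other genes chosen after their values were seen.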

Additional observations from a re-analysis of the deposited data

How the results depend on the processing

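Calls among the members numbered 3 at an adjusted p below 0.05, and 2 to 4 under 4 other choices of threshold and adjustment. An unadjusted p below 0.05, chosen after seeing the data, gave 5. Ngp lost its call when p was adjusted over every gene with a p (0.0612), and Lyz1 gained one when p was adjusted over genes with a mean of at least 100 normalized counts (0.0415). C1qa and Ngp lie below that mean and were not in it. The median log2 fold change, -1.09 over 34 members, ranged from -1.18 to -0.78 over 5 alternatives, 2 of them chosen after seeing the data, with the value nearest 0 after removal of trends on exonic length and GC content. No paired analysis was possible because no per-sample column matches the labels. For the same reason the fits without a filter, with DESeq2 size factors, with another pseudocount and without each replicate in turn were not run. Depth per sample, the share of single libraries in these values and the direction of the deposited comparison limit what the signs can show.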

Other observations

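Markers of cells outside the 5 classes were read in the same way, beside the 13.5% of all tested genes that were called negative. Of 12 dendritic cell genes with an adjusted p, 6 were called negative, and the median of the 12 was -1.42 on the log2 scale in the authors' deposited table. The 6 were H2-Ab1, H2-Aa, H2-Eb1, Zbtb46, Itgae and Batf3. Ccl22, Fscn1, Flt3, Cd209a, Bst2 and Xcr1 were not called, with values from -2.13 for Ccl22 to 0.32 for Xcr1. Whether the 6 called genes came from dendritic cells was not tested. H2-Ab1, an MHC class II chain, had both the highest mean and the smallest p of that list, at -1.74 ± 0.22 in the authors' deposited table. Of 10 B and plasma cell genes, 5 were called negative, and the median was -1.06. Ighm, the IgM heavy chain, had the highest mean (-1.56 ± 0.53) and Cd79b, a chain of the B cell receptor, the smallest p (-0.88 ± 0.23) in the authors' deposited table. Endothelial genes were negative in 10 of 10 and fibroblast and smooth muscle genes in 11 of 12, with 0 and 1 called in the authors' comparison, and 0 endothelial genes had an unadjusted p below 0.05. Pecam1, an adhesion protein of endothelium, led its list on both counts with -0.32 ± 0.17 (adjusted p = 0.181) in the authors' deposited table. Among fibroblast and smooth muscle genes, fibronectin (Fn1) had the highest mean, at 0.28 ± 0.22 (adjusted p = 0.373), and the growth factor receptor Pdgfrb was the one called, at -1.63 ± 0.34, in the authors' deposited table. T cell genes were split, 5 negative and 5 positive, with 2 called negative, Cd3g of the T cell receptor complex (-0.66 ± 0.19) and the adaptor Trat1 (-2.65 ± 0.35), in the authors' deposited table. Of 6 natural killer cell genes 3 had an adjusted p, and 1 was called, the protease Gzma at -3.94 ± 0.93 and 2738 normalized counts in the authors' deposited table. Its SE was 6.54 times the running median. An SE of at least 2 times the running median was found in 7 of 10 B and plasma cell genes, 7 of 10 endothelial genes and 8 of 12 fibroblast and smooth muscle genes, against 2 of 22 ILC2 genes, in the authors' deposited table.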
